A study of Homo sapiens with 27 samples.

Results

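The genes described here encode the subunits of the proteasome. They were taken as every gene whose symbol is PSMA, PSMB, PSMC or PSMD followed by a number, which gave 39 of the 58233 genes in the deposited tables. Of these, 19 belong to the 20S core (PSMA and PSMB) and 20 to the 19S cap (PSMC and PSMD). The cells were HL-60, a line grown from a human promyelocytic leukaemia, profiled in 27 libraries with 1 library per group, so nothing below has a replicate and differences are between libraries. Total RNA and nascent RNA, the RNA made during a labelling pulse and pulled out by click chemistry, were sequenced from untreated cells. Nascent RNA was also sequenced after 3 treatments: DMSO as the vehicle, DRB at 100 µM and actinomycin D (ActD) at 0.8 µM. Both drugs inhibit transcription, DRB by blocking the kinase that releases paused RNA polymerase II into elongation, ActD by inserting into the DNA template. The histone variant H2A.Z and its acetylated form (acH2A.Z) were mapped by chromatin immunoprecipitation (ChIP) in the same 3 treatments and in cells labelled siMyc or siNTC, that is an siRNA named for MYC and its control. In untreated cells, RNA bound to H2A.Z, to acH2A.Z or to the acetyltransferase Tip60 was recovered by RNA immunoprecipitation (RIP). No RNA table of siMyc or siNTC cells was used here, so the knockdown itself could not be checked.

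The proteasome is the barrel-shaped protease that degrades ubiquitin-tagged proteins. Its 20S core stacks outer rings of alpha subunits, which gate the entrance, on inner rings of beta subunits, some of which carry the proteolytic sites. The 19S cap has a base, whose ATPases unfold the substrate and thread it into the core, and a lid that removes the ubiquitin. In cells of the immune system and under interferon, PSMB8, PSMB9 and PSMB10 can replace the catalytic subunits PSMB5, PSMB6 and PSMB7 and form the immunoproteasome. Because the particle needs its subunits in fixed proportion, the genes are known for joint control, including by the transcription factor encoded by NFE2L1. The members lie on 16 chromosomes, with gene spans of 1849 to 138787 bp and a median of 15314 bp (RefSeq, GRCh38.p14). PSMB8 (chr6:32840717-32844679) and PSMB9 (chr6:32854192-32859851) are neighbours in the class II region of the major histocompatibility complex, and PSMB5 (chr14:23025851-23035220) lies near PSMB11 (chr14:23042212-23044060).

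The RNA libraries held 12600067 to 25167597 expected counts. Those of treated and untreated cells stood apart. Mitochondrially encoded genes took 45.9% of the DMSO, 66.5% of the DRB and 56.9% of the ActD counts, beside 0.649% in total and 0.560% in untreated nascent RNA. This share moves the CPM, a count scaled to the library total, of every nuclear gene, and its part in the results below was not tested beyond the other scales given. The promyelocyte gene MPO stood between 361 and 559 CPM in all 5 RNA libraries and the markers AZU1, PRTN3 and CTSG were present in all 5. ELANE was at 0 in 4 of the 5, and CD33 went from 38.4 CPM under DMSO to 3.49 under DRB and 1.19 under ActD. None of 10 erythroid, lymphoid, epithelial or fibroblast markers passed 1.63 CPM, and HBA1, HBB and EPCAM were at 0 in all 5. A change in the number of cells and a change in RNA per cell cannot be told apart in these bulk libraries. Members held 0.112% to 0.206% of counts.

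In untreated cells 36 members were detected in both RNA libraries and 3 were near or at 0. PSMA8, the testis form of an alpha subunit, had 0 counts in all 5 RNA libraries. PSMB11, the thymus form of the catalytic beta subunit, had 1 count in total RNA, 5 in untreated nascent RNA and 0 in the treated libraries. PSMD5, a chaperone of base assembly, had 9.91 expected counts in untreated nascent RNA and 0 in the other 4 libraries. A count of 0 allows up to 3 counts, which is 0.119 to 0.238 CPM depending on the library. The genes could be counted in principle, because the input DNA libraries under DMSO, DRB and ActD held 2, 7 and 4 counts of PSMA8, 9, 8 and 15 of PSMB11, and 12, 9 and 12 of PSMD5. The genes on either side of PSMD5 had RNA, with FBXW2 at 107 CPM and PHF19 at 77.7 CPM in total RNA. These 3 members did not pass the filter on low counts, so the counts of RNA calls below are over the 36 that did. Peaks and promoter windows were counted over members whether or not they passed it.

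**Figure D1:**
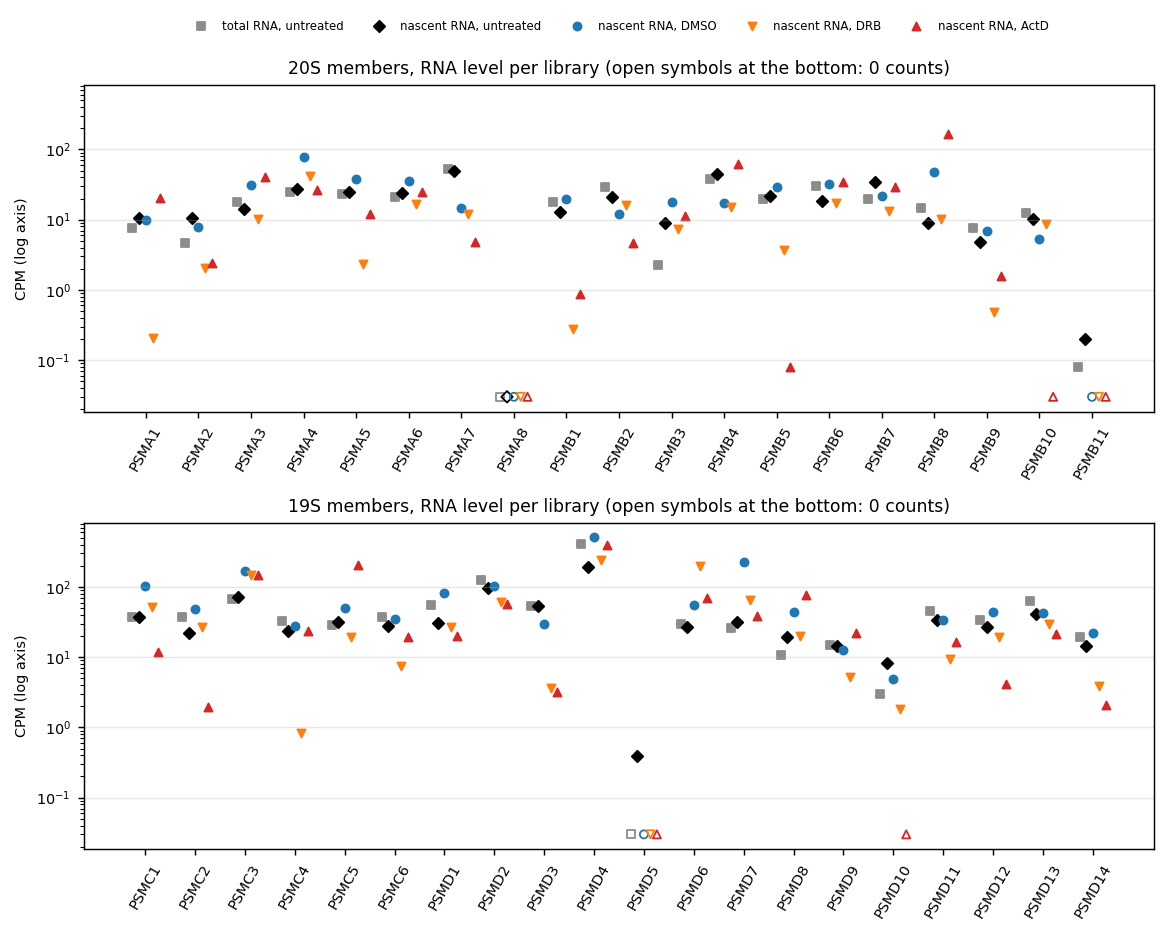
RNA level of each member in CPM on a log axis, with 1 symbol per library and open symbols at the bottom for 0 counts. PSMD4 stands at the top in total RNA, at 412 CPM, and PSMA8 is at 0 in all 5 libraries, while many members spread over more than 10-fold among the treated nascent libraries.

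Per length, the ubiquitin receptor PSMD4 led the total RNA with a deposited TPM of 103, a length-scaled share of the library's transcripts, which was 21.2 times the median member. The scaffold subunit PSMD2 followed with 29.6 TPM, the lid subunit PSMD13 with 16.4, the alpha subunit PSMA7 with 13.6 and the ATPase PSMC3 with 11.3. PSMD4 alone held 36.2% of the counts of the 19S genes. The medians of the core and cap were close in total RNA, at 4.44 TPM for 20S and 4.88 TPM for 19S members. In DMSO nascent RNA the order was PSMD4 with 514 TPM, PSMC3 with 242, the lid subunit PSMD7 with 156, the ATPase PSMC1 with 154 and PSMD2 with 98.6. TPM values sum to a fixed total within a library, so levels are compared here between genes of 1 library and not across libraries. PSMD4 was first in total, DMSO and ActD RNA and second, behind PSMC3 with 214 TPM, under DRB.

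Sequences before the starts are shown for some members. They are PSMD5 and PSMA8, which had little or no RNA, and the catalytic pair PSMB5 and PSMB8, whose RNA went opposite ways under ActD. The others are 4 examples from the 10 members of the 19S cap that carry an ETS motif. The sequences are from RefSeq (GRCh38.p14), read 5′ to 3′ on the gene's strand, and end at the base before the annotated start, upstream of the first exon. Positions are chr9:120842923-120843072 on the minus strand for PSMD5, chr18:26133719-26133868 on the plus strand for PSMA8, chr14:23035221-23035370 (minus) for PSMB5, chr6:32844680-32844829 (minus) for PSMB8, chr14:52707050-52707199 (plus) for PSMC6, chr19:38374421-38374570 (plus) for PSMD8, chr12:121888640-121888789 (plus) for PSMD9 and chr17:67366578-67366757 (minus) for PSMD12. Capitals mark every match, on either strand, to 5 motifs: CCAAT (the CCAAT box), CACGTG (the E-box that MYC and its relatives bind), CCGGAAG (ETS), TGACNNNGC (the core of the antioxidant response element) and TATAAA (the TATA box).
PSMD5: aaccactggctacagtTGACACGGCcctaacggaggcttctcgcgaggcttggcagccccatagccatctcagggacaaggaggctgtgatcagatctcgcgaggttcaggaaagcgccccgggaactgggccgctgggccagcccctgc
PSMA8: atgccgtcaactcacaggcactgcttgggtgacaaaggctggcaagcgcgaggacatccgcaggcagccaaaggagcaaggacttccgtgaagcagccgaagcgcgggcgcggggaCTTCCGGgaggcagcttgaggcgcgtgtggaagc
PSMB5: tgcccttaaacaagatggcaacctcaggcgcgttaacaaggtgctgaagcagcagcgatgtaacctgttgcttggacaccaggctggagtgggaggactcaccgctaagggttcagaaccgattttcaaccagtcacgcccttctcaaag
PSMB8: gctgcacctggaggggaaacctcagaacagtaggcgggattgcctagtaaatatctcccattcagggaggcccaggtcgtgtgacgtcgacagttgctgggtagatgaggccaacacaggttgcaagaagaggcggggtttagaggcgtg
PSMC6: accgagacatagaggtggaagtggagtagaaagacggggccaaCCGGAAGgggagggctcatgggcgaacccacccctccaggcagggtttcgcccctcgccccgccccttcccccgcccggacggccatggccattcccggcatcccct
PSMD8: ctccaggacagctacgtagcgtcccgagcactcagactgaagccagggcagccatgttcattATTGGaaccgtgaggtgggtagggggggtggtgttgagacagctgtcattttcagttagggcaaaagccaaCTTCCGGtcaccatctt
PSMD9: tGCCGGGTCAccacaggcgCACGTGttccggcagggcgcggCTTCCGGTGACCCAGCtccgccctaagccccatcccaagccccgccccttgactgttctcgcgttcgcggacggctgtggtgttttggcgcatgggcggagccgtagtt
PSMD12: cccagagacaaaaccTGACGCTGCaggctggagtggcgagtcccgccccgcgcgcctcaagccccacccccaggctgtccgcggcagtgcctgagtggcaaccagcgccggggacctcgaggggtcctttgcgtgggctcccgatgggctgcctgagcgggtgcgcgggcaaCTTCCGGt
In PSMD9 the ETS match abuts an antioxidant response element core, so their capitals run together, and a further core and an E-box lie upstream of them. The stretches of PSMB5 and PSMB8 hold no match.

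RefSeq gave a promoter window of 250 bases before to 50 bases after the start for 34 of the 39 members. PSMA7, PSMB1, PSMB6, PSMB7 and PSMD4 were not among them. The ETS motif was in 12 of the 34 windows, or 35.3%, against 12.2% of all 27305 windows and 24.5% of the 9053 of expressed protein-coding genes. Of the 12, 10 belonged to the 19S cap (PSMC1, PSMC2, PSMC6, PSMD6, PSMD7, PSMD8, PSMD9, PSMD12, PSMD13 and PSMD14) and 2 to the 20S core (PSMA6 and PSMA8). The antioxidant response element core was in 10 windows, or 29.4%, against 16.1% of all and 19.5% of expressed ones, with 3 of the 10 in core genes and 7 in cap genes. CCAAT was in 18 windows, or 52.9%, against 39.7% and 43.8%. TATAAA was in 5, or 14.7%, against 13.99% and 8.22%. The E-box CACGTG was in 2 windows, those of PSMB3 and PSMD9, which is 5.88% against 8.77% of all and 13.1% of expressed ones. A match describes letters in this window and shows no binding.

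Ratios between RNA libraries are given as log2 of CPM with 1 CPM added, and a gene is called higher or lower where the ratio is at least 2-fold. In untreated cells, nascent and total RNA differed little for the members. PSMB3, a structural beta subunit, stood at 2.29 CPM in total and 8.94 in nascent RNA, PSMD10, a base chaperone also known as gankyrin, at 3.0 and 8.19, and the alpha subunit PSMA2 at 4.59 and 10.6. These 3 were higher in nascent RNA, by log2 ratios of 1.60, 1.20 and 1.06. PSMD4 was the single lower one, at 412 CPM in total and 195 in nascent RNA, a log2 ratio of -1.07. The calls were 3 higher and 1 lower of 36, against 9.5% higher and 17.8% lower among all 13988 genes tested. The median ratio of the members was -0.13, with 0.05 for 20S and -0.33 for 19S genes, and that of all genes was -0.34.

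The vehicle library was not interchangeable with the untreated one. Between untreated and DMSO nascent RNA, PSMD7 went from 31.8 to 227 CPM, the immunoproteasome subunit PSMB8 from 9.02 to 47.0, the alpha subunit PSMA4 from 27.6 to 77.8 and PSMC1 from 37.1 to 103. In the other direction PSMA7 went from 49.2 to 14.5 CPM and the structural beta subunit PSMB4 from 44.4 to 17.1. Of the 36 members 11 were higher and 2 lower under DMSO, against 23.3% and 24.5% of 13714 genes. All 8 calls in 19S genes were higher, while the 20S genes gave 3 higher and 2 lower. Median log2 ratios were 0.57 for the members, 0.42 for 20S, 0.64 for 19S and 0.05 for all genes. PSMA4 lay at 1.46, PSMC1 at 1.45, the scaffold subunit PSMD1 at 1.38 and PSMD4 at 1.38. How much of this came from the vehicle and how much from the library cannot be told apart, and the DMSO library is the shared reference of the DRB and ActD comparisons.

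Under DRB the members fell in CPM about as much as genes in general. Of the 36 members 23 were lower than under DMSO and 1 higher, against 54.7% lower and 9.1% higher among all 12121 genes tested. The median log2 ratio was -1.12 for the members and -1.19 for all genes. Core and cap lay close together, with -1.15 and 10 of 17 lower for 20S genes and -1.12 and 13 of 19 lower for 19S genes. Centred on the median of all genes, the members' median turned to 0.06 and the calls became 5 higher and 8 lower, beside 24.9% and 26.4% of all genes. Rescaled without mitochondrial, ribosomal RNA and polymerase III genes, the median was -0.49 for the members and -0.61 for all genes. With edgeR's TMM factors the medians were -0.06 and -0.18. CPM is a share of its library, so the size of the fall depends on the scale.

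Subunits of 1 ring differed widely under DRB. In the alpha ring 5 of 7 genes were lower. PSMA1 went from 9.84 to 0.209 CPM, which is 142 against 3 counts, a log2 ratio of -3.16 with a 95% counting interval of the plain count ratio of -7.85 to -3.98. PSMA5 went from 37.4 to 2.37 CPM, a log2 ratio of -3.51, with an interval of -4.52 to -3.48. PSMA7 differed little, at 14.5 and 11.9 CPM. The intervals are exact binomial, cover counting error only and carry no added CPM, so for genes with few counts they can lie beyond the ratio.

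Among structural beta subunits PSMB1 went from 19.8 to 0.279 CPM, the lowest ratio of all members at -4.02, with an interval of -8.03 to -4.77 from 285 and 4 counts. PSMB2 and PSMB4 were within 2-fold, at 11.9 and 16.3 CPM and at 17.1 and 15.1 CPM. The ring thus held members far below and well above the median gene. Of the catalytic subunits PSMB5 was lower, from 28.8 to 3.70 CPM (log2 ratio -2.67), while PSMB6 and PSMB7 were within 2-fold. In the base, the ATPase PSMC4 went from 28.3 to 0.837 CPM, a log2 ratio of -3.99 with an interval of -6.04 to -4.26. PSMC3, its partner in the ATPase ring, stayed within 2-fold at 167 and 148 CPM. Of the 6 ATPases 3 were lower.

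The lid held the highest ratio of the cap. Of its 8 genes 6 were lower and 1 was higher, with a median log2 ratio of -1.44, beside the 54.7% and 9.1% of all genes. Centred on the median gene, 2 of the 8 lid genes, 2 of the 7 alpha subunits and 1 of the 6 ATPases were lower, and the lid's median was -0.25. PSMD3 went from 29.4 to 3.70 CPM and PSMD14, the deubiquitinase of the lid, from 22.3 to 3.84 CPM, with log2 ratios of -2.69 and -2.27. PSMD6 went the other way, from 55.3 to 201 CPM, a log2 ratio of 1.84 with an interval of 1.75 to 1.98, and was the single member higher under DRB. PSMD6 had 26.6 to 29.7 CPM in untreated cells and 70.7 CPM under ActD. Its antisense gene PSMD6-AS2, which overlaps it, stood at 3.47, 11.2 and 1.75 CPM under DMSO, DRB and ActD. PSMD6-AS2 was thus higher with PSMD6 under DRB, while under ActD both were within 2-fold of DMSO with 1 CPM added. Whether the counting used the strand is not given in the sources used here. On the centred scale PSMD6 stood at 3.03.

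Actinomycin D gave a wider spread than DRB, with quartiles of the members' log2 ratios at -2.53 and 0.14 against -2.09 and -0.82. Over all genes tested the quartiles were -2.31 and 0.22 under ActD and -2.25 and -0.19 under DRB. Of the 36 members 18 were lower than under DMSO and 3 higher, against 50.1% and 15.4% of 12121 genes. Median log2 ratios were -0.96 for the members, -1.20 for 20S, -0.92 for 19S and -1.01 for all genes, so that centring left 10 higher and 10 lower, with a median of 0.05. Among all genes centring left 30.1% higher and 31.6% lower.

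The 3 members higher under ActD came from different parts of the particle. The ATPase PSMC5 stood at 50.1 CPM under DMSO, 19.3 under DRB and 204 under ActD, a log2 ratio to DMSO of 2.0 with an interval of 1.91 to 2.15. PSMB8 stood at 47.0, 10.1 and 164 CPM, a log2 ratio of 1.78 with an interval of 1.68 to 1.93. PSMB4 stood at 17.1, 15.1 and 61.3 CPM, a log2 ratio of 1.78 with an interval of 1.63 to 2.05. In all 3 the ActD library was above each of the other 4. PSMB8-AS1, which overlaps PSMB8 on the other strand, was at 0.0762, 0.767 and 10.2 CPM under DMSO, DRB and ActD. FTSJ3, which overlaps PSMC5, did not follow it and stood at 240.4, 120.0 and 135 CPM. The alpha subunit PSMA1 was just under the 2-fold limit, from 9.84 to 20.6 CPM.

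Falls in CPM under ActD reached the counting floor in several members. PSMB5, the main chymotrypsin-like subunit, went from 28.8 to 0.0794 CPM, which is 416 against 1 count, a log2 ratio of -4.79 with a counting interval of -13.81 to -6.02. PSMB10 went from 5.31 CPM and PSMD10 from 4.85 CPM to 0 counts, at least 22.3-fold and at least 20.4-fold lower when 3 counts stand for 0. The ATPase PSMC2 went from 48.8 to 1.98 CPM, a log2 ratio of -4.06 with an interval of -5.26 to -4.05. Under DRB, PSMB5 and PSMD10 were lower too, while PSMB10 and PSMC2 were within 2-fold of DMSO. PMPCB, which overlaps PSMC2, was at 46.3 CPM under DMSO and 33.2 under ActD.

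Of the lid genes 5 of 8 were lower under ActD, with a median log2 ratio of -1.77, beside 50.1% of all genes. Centred on the median gene, 4 were lower and 2 higher. PSMD12 went from 44.2 to 4.21 CPM, PSMD14 from 22.3 to 2.06, PSMD3 from 29.4 to 3.17 and PSMD7 from 227 to 38.5, with log2 ratios of -3.12, -2.93, -2.86 and -2.53. The lid genes PSMD6 and PSMD8 lay at 0.35 and 0.82. In the base, PSMC1 had a log2 ratio of -3.0, going from 103 to 12.0 CPM. The tables also list 13 pseudogenes of PSMC1, which held 147 counts under DMSO and 76.3 under ActD together, so a part of its reads may be split among near-identical copies.

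**Figure D2:**
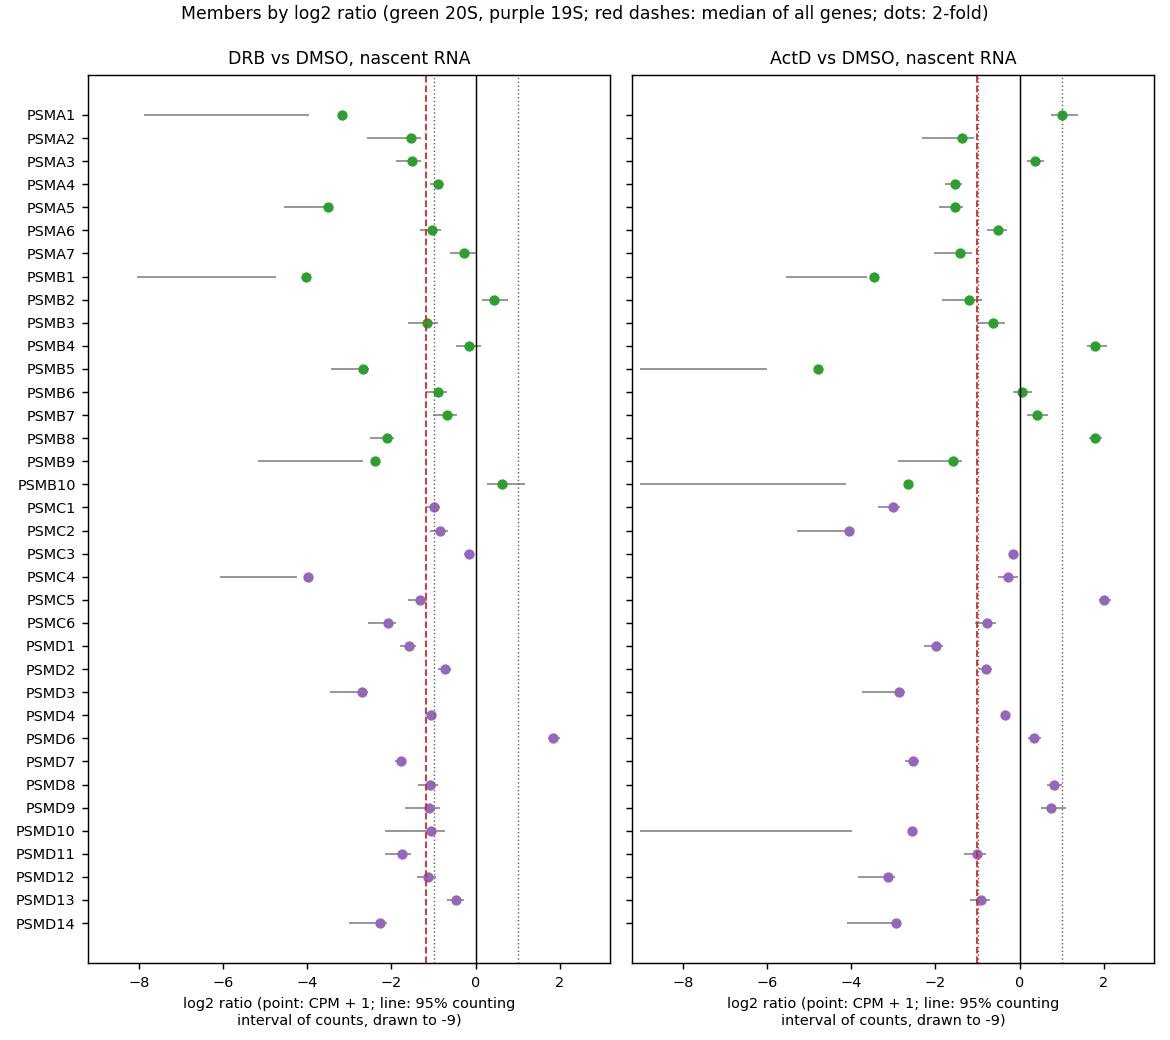
Log2 ratio of each tested member under DRB (left) and ActD (right) against DMSO nascent RNA, as points with 1 CPM added, with lines for the 95% counting interval of the plain count ratio. The dashed line marks the median of all genes, -1.19 under DRB and -1.01 under ActD, and members lie on both sides of it in each panel, from -4.02 to 1.84 and from -4.79 to 2.0.

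Set directly against each other, the 2 inhibitors differed at the members about as often as at genes in general. ActD against DRB gave 11 members higher and 9 lower, beside 32.9% and 26.9% of all genes, with a median of 0.33 against 0.10. The median was 0.55 for 20S and -0.17 for 19S genes. PSMA1 stood at 0.209 CPM under DRB and 20.6 under ActD, a log2 ratio of 4.16 with an interval of 5.06 to 8.91 from 3 and 260 counts. PSMB8 had a log2 ratio of 3.90, PSMC4 of 3.73, PSMC5 of 3.34 and PSMA5 of 1.96. On the low side PSMB10 stood at 8.72 CPM under DRB and 0 under ActD, at least 36.6-fold lower, and PSMD10 was at least 7.62-fold lower. PSMC2 had a log2 ratio of -3.21, PSMB5 of -2.12, PSMC1 of -2.02, PSMD12 of -1.99 and PSMB2 of -1.63. Each of these rests on 1 library per inhibitor.

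The catalytic subunits and their immunoproteasome counterparts differed in balance between libraries. In total RNA PSMB8 had 3.21 TPM and PSMB5, the subunit it replaces, 5.56. In untreated nascent RNA the pair had 1.67 and 5.30 TPM, under DMSO 50.9 and 30.4, under DRB 9.38 and 4.04, and under ActD 161 and 0.07. PSMB8 thus led in the 3 treated libraries and PSMB5 in the untreated ones. PSMB9 was below PSMB6 in all 5 libraries, with 1.59 and 9.88 TPM in total, 1.05 and 5.10 in untreated nascent, 10.1 and 50.2 in DMSO, 0.56 and 30.3 in DRB and 2.26 and 54.5 in ActD RNA. PSMB10 and PSMB7 stood at 4.85 and 5.18 TPM in total, 2.64 and 7.45 in untreated nascent, 11.7 and 26.6 in DMSO, 18.3 and 14.6 in DRB and 0 and 31.1 in ActD RNA. The immunoproteasome genes did not move together, since under ActD PSMB8 was higher and PSMB9 and PSMB10 lower than under DMSO.

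Other genes of the pathway were taken from a list of 36, of which 35 were tested. Under DRB 21 were lower and 0 higher, beside 54.7% and 9.1% of all genes, with a median log2 ratio of -1.59. Centred on the median gene, 11 were lower and 5 higher, with a median of -0.41. The shuttle factor UBQLN1 went from 38.5 to 2.79 CPM, a log2 ratio of -3.38. PSMG1, a chaperone of alpha ring assembly, and UBA1, the ubiquitin-activating enzyme, were within 2-fold at 0.65 and 0.22. Under ActD 16 were lower and 3 higher, beside 50.1% and 15.4% of all genes, with a median of -0.90. Centring turned that balance, to 9 lower and 12 higher with a median of 0.11. The cap-associated TXNL1 went from 105 to 1.19 CPM, a log2 ratio of -5.60, and the cap deubiquitinase UCHL5 had -4.16. The assembly chaperone PSMG3 went from 9.70 to 78.3 CPM, a log2 ratio of 2.89, while the shuttle factor RAD23B had 1.12. ActD against DRB gave 13 of the 35 higher and 5 lower, beside 32.9% and 26.9% of all genes. Nascent against total RNA gave 2 and 2, beside 9.5% and 17.8%, and DMSO against untreated nascent RNA 7 and 2, beside 23.3% and 24.5%.

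Acetylated H2A.Z marked the expressed members in 4 of 5 ChIP lists almost without exception. A peak lay within 1 kb of the gene in 36 of 39 members under DMSO, 36 under DRB, 35 under ActD and 36 in siNTC cells. Among all 27497 genes with RNA and a position the shares were 47.1%, 55%, 48.4% and 49%, and among expressed protein-coding genes 89.4%, 94.5%, 85.4% and 91.3%. The members without a peak under DMSO, DRB and siNTC were PSMA8, PSMB11 and PSMD5, the same 3 that failed the RNA filter. Under ActD PSMA7 was without one as well. In siMyc cells 26 members had a peak, against 31.4% of all and 57.8% of expressed protein-coding genes.

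Of the 36 members with a peak in siNTC cells 11 had none in siMyc cells, against 40.4% of all genes with a siNTC peak and 38.2% of the expressed protein-coding ones. They were 4 core genes (PSMA7, PSMB1, PSMB6 and PSMB9) and 7 cap genes (PSMD1, PSMD4, PSMD6, PSMD9, PSMD11, PSMD12 and PSMD13). No ATPase was among them. PSMA8 had a peak in siMyc cells alone. The peak over PSMA7 differed widely between lists, with 571 normalized tags under DMSO, 91.6 under DRB, none under ActD, 1663 in siNTC and none in siMyc cells. Over PSMD4 the tags were 1997 under DMSO, 418 under DRB, 1851 under ActD, 313 in siNTC and none in siMyc cells. Peaks were called per library and the siMyc list holds 14528 peaks of a median 637 bp against 17353 of 1306 bp in siNTC. The part of this difference between the lists in the loss was not tested. With a fold over control of at least 8, 16 members had a peak in siNTC and 12 in siMyc cells. The share of all genes at that limit was not computed.

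**Figure D3:**
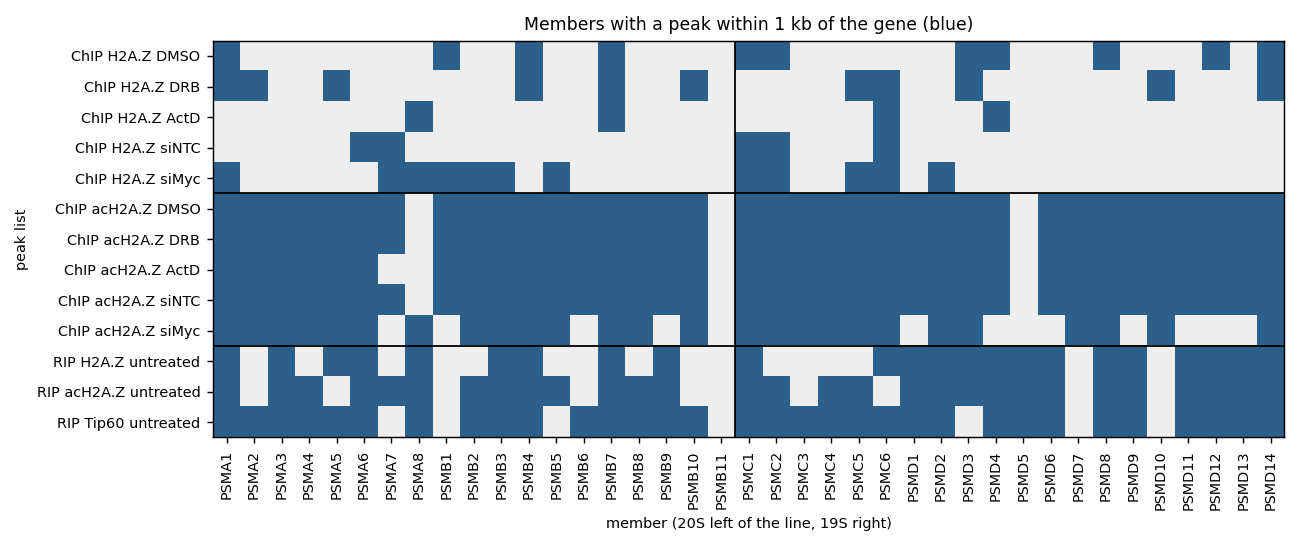
Each column is a member and each row a peak list, with blue where a peak lies within 1 kb of the gene. The acH2A.Z rows are nearly filled, with 36 members under DMSO, except at PSMA8, PSMB11 and PSMD5, and the siMyc row is filled in 26, whereas the H2A.Z rows hold 4 to 12 members.

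H2A.Z itself, detected with the antibody to the whole variant, gave peaks at fewer of these genes than acH2A.Z did. Members with a peak numbered 11 under DMSO, 11 under DRB, 4 under ActD, 5 in siNTC and 12 in siMyc cells. Of the 39 these are 28.2%, 28.2%, 10.3%, 12.8% and 30.8%. Among all genes the shares were 5.54%, 12.3%, 14.2%, 11.9% and 18.1%, and among expressed protein-coding genes 11.7%, 24.5%, 21.9%, 19.8% and 30.2%. The members' share was thus above that of expressed genes under DMSO, and below it under ActD and in siNTC cells. DMSO and DRB shared 5 members (PSMA1, PSMB4, PSMB7, PSMD3 and PSMD14), which is 5 of 11 in each list. Over all genes the shared ones were 61.3% of the DMSO and 27.6% of the longer DRB list. Members of DMSO alone were PSMB1, PSMC1, PSMC2, PSMD4, PSMD8 and PSMD12, and members of DRB alone PSMA2, PSMA5, PSMB10, PSMC5, PSMC6 and PSMD10. Tags were low, 18 to 70.0 under DMSO, and the highest of that list were PSMB4 with 70.0 and PSMD4 with 67.4. In siNTC and siMyc cells 1 member stood apart, PSMA7, with 319.9 and 531 tags beside 7.69 to 50.7 over other members in siMyc cells. In 15 members no H2A.Z list held a peak.

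The acH2A.Z peak that covers the annotated start could be measured in 31 members under each of DMSO, DRB, ActD and siNTC, and in 17 in siMyc cells. Under DRB it had fewer tags in all 31, against 76.7% of expressed genes with a start peak in both lists, and shortened on the gene side. PSMA5 went from 2088 to 318 tags, PSMD12 from 1342 to 255, PSMA6 from 1018 to 201 and PSMD13 from 608 to 132.5. PSMB5 changed least, from 1249 to 1079. In 22 members tags were at least 2-fold lower, against 45.2% of the 6370 expressed protein-coding genes with a start peak in both lists, and the 22 were 7 of 13 core and 15 of 18 cap genes. None was at least 2-fold higher, against 7.6%. The median log2 ratio of tags was -1.29 for the members and -0.87 for the other genes. A narrower peak also holds fewer tags, and in tags per kb of peak the medians were -0.87 and -0.57. By that measure PSMB3, PSMB5 and PSMB2 were higher under DRB, at 0.53, 0.35 and 0.04, and all other members were lower. Centred on the median expressed gene, 7 members were at least 2-fold lower. The share of all expressed genes on that scale was not computed, so this count has nothing to be read against. Tags are the authors' normalized counts, taken here to be on 1 scale in all lists.

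The shortening lay downstream of the start. The median peak of the members reached 1327 bp upstream and 1721 bp downstream under DMSO, 1259 and 1045 bp under DRB, and 1450 and 1977 bp under ActD. From DMSO to DRB the downstream edge drew back in 30 of 31 members, with a median change of -688 bp, beside -30 bp for the upstream edge. Upstream edges went both ways, shorter in 17 of 31, from -3395 bp at PSMB3 to 806 bp at PSMA3. In other genes the downstream edge drew back in 82.6%. The exception among members was PSMB10, whose downstream edge went from 1244 to 1751 bp. The centre of the peak lay downstream of the start in 23 of 31 members under DMSO, 5 under DRB and 25 under ActD, which is 74.2%, 16.1% and 80.6%, beside 65.5%, 42.8% and 63.2% in other genes. It was farther upstream under DRB than under DMSO in 28 of 31 members, 10 of 13 core and 18 of 18 cap genes, against 75.4% of genes. The 3 exceptions, all in the core, were PSMB3, PSMB8 and PSMB10.

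**Figure D4:**
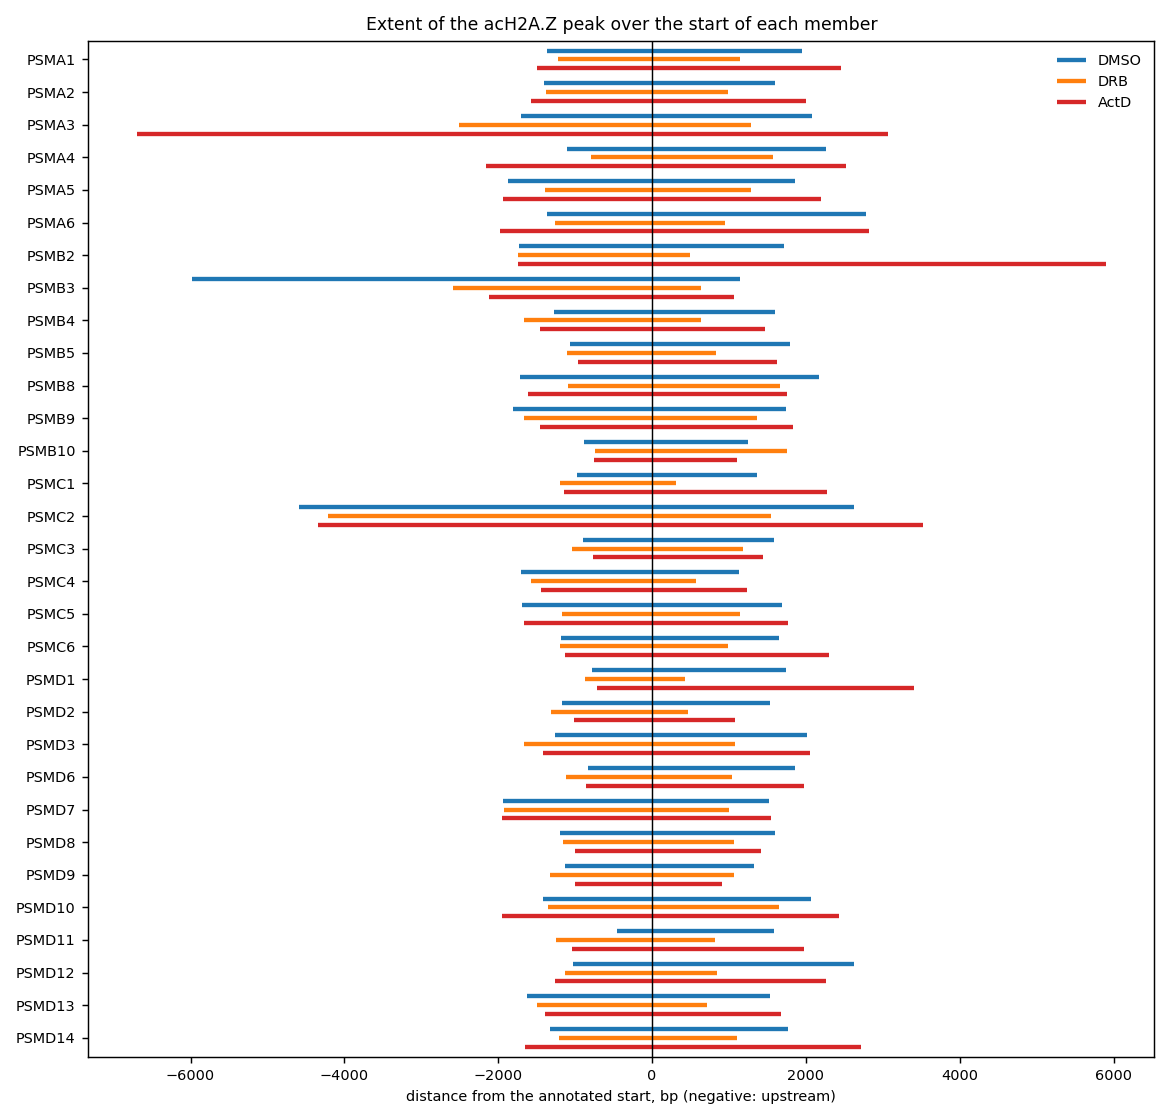
Extent of the acH2A.Z peak over the annotated start of 31 members, as bars in bp from the start, negative upstream, with 1 bar each for DMSO, DRB and ActD. The DRB bars end nearer the start on the gene side in 30 of 31 members, while the upstream ends go both ways, nearer in 17 of 31, with a median change of -30 bp.

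Under ActD the start peaks of most members changed less. Tags were at least 2-fold lower in 8 members, against 31.3% of 5220 genes, and at least 2-fold higher in 1, against 3.31%. Median log2 ratios were -0.42 for the members and -0.54 for other genes. With tags centred on the median gene 4 members were called lower, and the share of all genes on that scale was not computed. The higher one was PSMB2, from 759 to 2660 tags, with a peak that grew from 3451 to 7643 bp. Its gene held 2 peaks under DMSO, with 1917 tags over 6066 bp together, and 1 peak under ActD. The change over the whole gene, from 1917 to 2660 tags, was thus less than 2-fold. PSMB10 went from 371 to 47.5 tags, PSMD2 from 554 to 128.5, PSMD9 from 408 to 88.7, PSMB8 from 741 to 223 and PSMD8 from 639 to 228. The centre was farther upstream in 14 of 31 members, against 46.5% of genes. RNA and tags did not go together for single members. PSMB8 was higher in RNA and lower in tags, PSMB10 was lower in both, and PSMC2, with 3018 and 3185 tags, had about the same number where its RNA went from 48.8 to 1.98 CPM. Over the 31 members, Spearman's rho between the log2 ratios of tags and of RNA was 0.02 under DRB and -0.24 under ActD. Over other expressed protein-coding genes it was 0.069 and -0.065, so a weak relation was not particular to the members. These values are a description over genes that share the libraries.

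In siNTC cells the core and cap start peaks stood at different levels. The median was 41.0 tags over 13 core genes and 183 over 18 cap genes, beside 283 over other expressed genes. Under DMSO the same genes had medians of 1018 and 781.5 tags. Of the 17 members with a start peak in siNTC and siMyc cells, 5 had tags at least 2-fold lower in siMyc cells, against 46.3% of 1446 genes. The 5 were in the cap: PSMC1 went from 145.5 to 35.0 tags, PSMC2 from 289.8 to 135, PSMC3 from 169 to 46.9, PSMD7 from 208 to 36.1 and PSMD8 from 129.5 to 20.7. The 17 are 10 core and 7 cap genes, and the lack of such a call in the core says little. Of the 10 core genes 7 had siNTC tags less than 2-fold above 20.7, the fewest in a member's siMyc start peak, beside 1 of the 7 cap genes. Most core genes thus started from few tags, though 20.7 is no limit of detection, as start peaks of other expressed genes went down to 8.27 tags. Lower by any amount were 4 of the 10 core and 7 of the 7 cap genes, with median log2 ratios of 0.32 and -1.85. A further 14 of the 31 members had no start peak left in siMyc cells, beside 79.5% of other expressed genes. They were 3 core genes (PSMA1, PSMA4 with 220.4 and PSMB9 with 257 tags in siNTC) and 11 cap genes, with 32.6 to 469.8 tags in siNTC. Not all of the 14 lost every peak. PSMA1, PSMA4, PSMC4, PSMC5, PSMD2, PSMD3 and PSMD14 still had a siMyc peak within 1 kb of the gene that did not cover the start. None of the 17 was at least 2-fold higher, against 2.35%, and the centre was farther upstream in 11, against 60.6%. The fold over control was at least 8 in both lists at 3 of the 17 members, and 0 of these 3 was at least 2-fold lower.

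**Figure D5:**
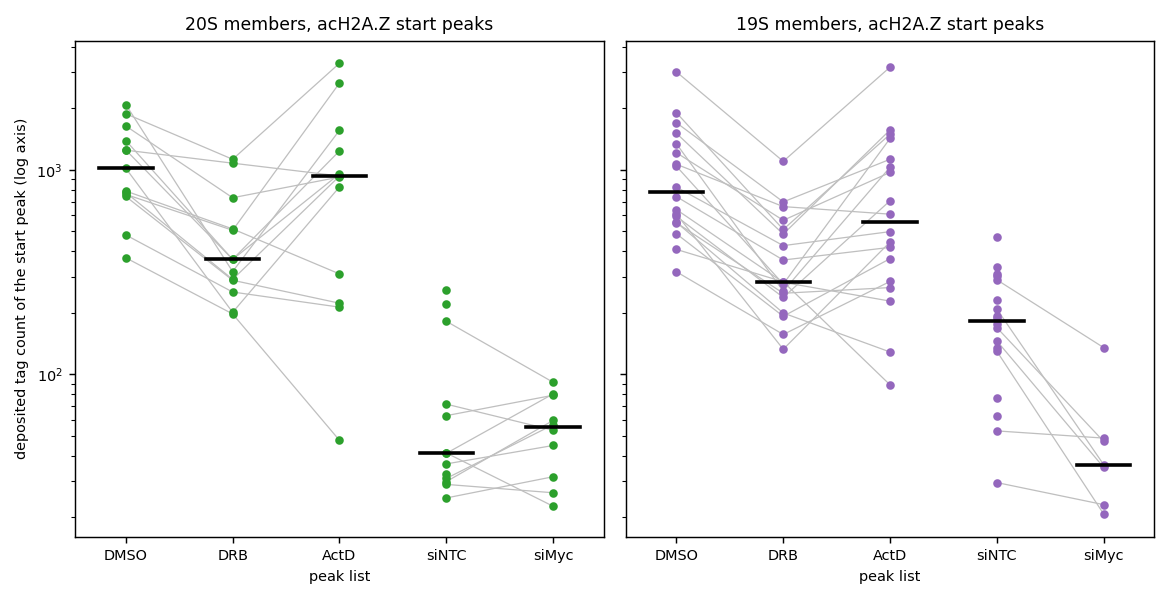
Deposited tag count of the acH2A.Z start peak on a log axis for core (left) and cap (right) members, with 1 point per member, lines joining a member within DMSO, DRB and ActD and within siNTC and siMyc, and bars for medians. All 31 lines fall from DMSO to DRB, and in siNTC the core points sit lower, with a median of 41.0 against 183 in the cap.

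RNA bound by the 3 immunoprecipitated proteins mapped to many members, at shares below those of expressed genes. A RIP peak lay within 1 kb of 23 members for H2A.Z, 29 for acH2A.Z and 32 for Tip60, which is 59.0%, 74.4% and 82.1% of the 39. Among all genes the shares were 50.8%, 69.1% and 69.2%, and among expressed protein-coding genes 70.8%, 83.4% and 86.6%. The members are shorter, with a median span of 15314 bp against 31217 bp for protein-coding genes with a mean of at least 1 CPM. The 39 also include the 3 that failed the RNA filter. The part of span length and of these 3 in the lower shares was not tested. All 3 lists held a peak at 20 members and none did at PSMB1, PSMB11, PSMD7 and PSMD10. The highest summed tags were those of PSMA3 with 41.6 and PSMD1 with 41.5 for H2A.Z, PSMB3 with 141 for acH2A.Z, and PSMA8 with 135 for Tip60. PSMA8 and PSMD5, which had no RNA in 4 or 5 of the RNA libraries, had peaks in all 3 lists, with 2.98 to 22.4 and 5.80 to 8.86 tags per peak. Of protein-coding genes with a mean under 1 CPM, 50.5%, 78.1% and 73.9% had a peak in these lists, beside 71.2%, 83.9% and 87.0% of those with a higher mean. The lists are long, with 99234, 264469 and 249628 peaks.

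RIP peaks at members lay on acH2A.Z ChIP peaks of DMSO cells in 4 of 49 cases for H2A.Z, 15 of 77 for acH2A.Z and 20 of 103 for Tip60. These are 8.16%, 19.5% and 19.4%, beside 2.17%, 2.33% and 2.27% of all RIP peaks in the lists. The 2 sets are unlike, because the lists hold RIP peaks wherever they lie, while 36 of 39 members had an acH2A.Z peak under DMSO. The share for RIP peaks at expressed genes was not computed, so the difference cannot be read as a trait of the members. Genes that carried such an overlap in both the acH2A.Z and the Tip60 list included PSMA4, PSMB4, PSMB8, PSMB9, PSMC1, PSMC4, PSMC5, PSMD2, PSMD8 and PSMD12.

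At the limit of 1 kb used for assigning peaks, the last peak inside was a Tip60 RIP peak with 5.85 tags at 998 bp from PSMD13, and the first outside an H2A.Z ChIP peak under ActD with 5.95 tags at 1033 bp from PSMB3. Of the 34 members with a promoter window, 9 have the start of a gene on the other strand within 1 kb. Among them are PSMA2 with MRPL32, PSMB9 with the peptide transporter gene TAP1, PSMC5 with FTSJ3, PSMD9 with HPD and PSMD13 with SIRT3. A peak there cannot be assigned to 1 gene of the pair. PSMA7, PSMB1, PSMB6, PSMB7 and PSMD4 have no promoter window, so starts near theirs were not searched. Of the 22 members with a start peak and no such neighbour, 20 had the centre of the acH2A.Z peak farther upstream under DRB than under DMSO.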

How the data were processed

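HL-60 libraries were grouped by their titles, 1 library per group, and 6 libraries with control IgG were not analysed here. Per the submitters' processing notes, reads were handled with STAR 2.5.2b, HOMER, cutadapt, Trim Galore and FastQC, on build GRCh38. The quantifier, its annotation and use of strand, and the length of treatment are not given in the sources used here. The deposited gene tables hold expected counts, here divided by the table's total to give CPM, and TPM, which the authors scaled per length and library and which was used only to rank genes within a library. The deposited peak lists hold, per the file headers, a normalized tag count (a signal value whose scale was assumed to be tags per 10000000), a fold over an unnamed control (a ratio, 4 or more) and a p-value (0.0001 or less). The authors called peaks per library.

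Log2 ratios carried a pseudocount of 1 CPM. Genes needed a mean of 1 CPM and 20 summed counts over the libraries compared (DMSO, DRB and ActD together for the comparisons among them), and were called at 2-fold. No test was possible with 1 library per group. Exact Clopper-Pearson 95% intervals and the floor of 3 counts hold counting error alone, as reads are not independent molecules. Expected counts were rounded for intervals. Peaks were assigned to RefSeq gene spans extended by 1 kb, of which all 39 members had one. A start peak is the peak over the most upstream start in the RefSeq promoter table. All members may be named. Values in every library are given for the 5 highest and 5 lowest members of a comparison with 100 summed counts and for PSMB5 to PSMB10, and of other pathway genes up to 3 highest and 3 lowest. The members and lists were chosen with earlier results of these data known. Alternatives were other scales (including edgeR 4.0.16 TMM factors), a pseudocount of 0.5 CPM, no filter, and other peak limits. Python 3.11.15, pandas 2.3.3 and scipy 1.17.1 were used, and the ratio calls were tested on simulated data. Some genes of the marker and pathway lists are counted but not reported here by name.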

Additional observations from a re-analysis of the deposited data

How the results depend on the processing

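Counts of RNA calls moved with the scale. Under DRB the 1 higher and 23 lower members became 5 and 8 when centred on the median gene, 3 and 13 without mitochondrial, ribosomal RNA and polymerase III genes, and 4 and 8 with TMM factors. Centring turned the members' median to 0.061 and the ratios of PSMD8 to 0.093, PSMA6 to 0.15, PSMD10 to 0.13, PSMD9 to 0.066, PSMD4 to 0.12, PSMD12 to 0.055 and PSMB3 to 0.032. TMM factors turned PSMD8 to 0.058, PSMA6 to 0.11, PSMD4 to 0.12 and PSMD12 to 0.021. These members lie near the median gene, which centring places at 0. Under ActD the 3 higher members became 10 (with 10 lower) when centred, 6 when rescaled and 9 with TMM factors. For nascent against total RNA the 3 higher and 1 lower became 5 and 0 when centred and with TMM factors, and 0 lower when rescaled. Among all 13988 genes centring left 1856 higher and 1434 lower. For DMSO against untreated nascent RNA the 11 higher became 7 when rescaled. The pseudocount and the filter left these counts within 1.5 times. Shares of all genes called are not given for the rescaled, TMM, pseudocount and filter alternatives, so member counts there cannot be set against genes in general.

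Peaks limited to 1 kb around a start left 1 member for H2A.Z under ActD, and in the RIP lists 1 for H2A.Z, 13 for acH2A.Z and 13 for Tip60. A fold over control of at least 8 left 2 members for H2A.Z under ActD, 2 in siNTC and 4 in siMyc cells, 16 and 12 for acH2A.Z in siNTC and siMyc cells, and 13 for RIP of H2A.Z. It also left 5 members with ActD start-peak tags at least 2-fold lower, and in siMyc cells 0 lower and 2 with the centre farther upstream, of 3 measured. Centring tags on the median expressed gene, an alternative chosen after seeing the data like tags per kb and the removal of head-to-head members, gave 7 lower under DRB and 4 under ActD. Shares of all genes are not given for these peak limits or for centred tags, so these member counts cannot be set against genes in general. Of 104 counts compared, 73 stayed within 1.5 times.

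No paired analysis was possible because each group has 1 library, and leaving out a library was not possible for the same reason. Members with few counts, such as PSMA1 and PSMB1 under DRB and PSMB5 under ActD, have wide intervals, and the cause of single differences was not tested.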
